A study of Mus musculus with 6 samples.

Results

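Retinoids are the vitamin A family, and the 9 genes described here act at successive steps of their handling in the cell: Rbp4, Stra6 and Lrat in carriage, uptake and storage of retinol, Dhrs9 in its oxidation to retinal, Aldh1a1, Aldh1a3 and Aldh1a7 in or beside the oxidation of retinal to retinoic acid, Crabp2 in binding of retinoic acid, and Cyp26b1 in its breakdown. They were chosen by symbol, and all 9 were found among the 17866 protein-coding genes of the deposited table. RNA-seq was performed on corneal epithelium separated from C57BL/6 mice at 6 months of age, in 3 libraries labelled wild type (WT) and 3 labelled Rela-/- (KO), each from an independent biological sample. In the methods of the study the KO mice were Krt14-Cre; Rela f/f, that is, Cre under the Krt14 promoter removed a floxed Rela allele, and the WT mice were age-matched controls whose own alleles are not given in the sources used here. Rela codes for p65, a subunit of NF-κB, which is a transcription factor. Krt14 is active in basal cells of many stratified epithelia, so the deletion was not limited to the cornea. The study reports that the central corneal epithelium of the KO mice was lost at an earlier age. By the age sampled here, it describes a newly formed, thick and keratinised layer like skin, which the sequencing was meant to identify. The comparison of the genotypes asks how the levels of the retinoid genes differed between this KO epithelium and WT corneal epithelium. How much of a difference came from the loss of Rela and how much from the change of tissue was not tested.

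Retinol reaches cells bound to RBP4, enters through the receptor STRA6 and is stored as retinyl ester made by LRAT. Dehydrogenases convert retinol to retinal in a reversible step, and the ALDH1A enzymes oxidise retinal to retinoic acid in a step that is not reversed. CRABP2 carries retinoic acid to its nuclear receptors, the RAR and RXR proteins, while CYP26 enzymes hydroxylate it for removal. The cornea depends on vitamin A, and its lack is known to turn the wet ocular surface into a keratinised, skin-like epithelium.

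Library totals lay between 20158404 and 20880347 estimated counts. Rela itself stood at 85.7, 85.8 and 87.8 CPM (counts scaled to a total of 1000000 and by the TMM factors of edgeR) in the WT libraries and at 16.1, 11.2 and 15.6 CPM in the KO libraries, with an edgeR log2 fold change of -2.60 and an SE of 0.141 (adjusted p = 2.74e-06). The tissue label was checked against marker lists. The summed level of 6 corneal epithelium markers, Krt12 and Pax6 among them, lay between 68030 and 68850 CPM in WT and between 11580 and 14320 CPM in KO, and 6 of 6 were lower in KO. The 6 epidermis markers summed to 15.1 to 20.3 CPM in WT and 11560 to 23940 CPM in KO, with 5 of 5 tested higher. Krt2, which was not tested, had 0 counts in WT and only 3, 1 and 2 counts in KO. The 6 conjunctiva and goblet cell markers summed to 1873 to 2899 CPM in WT and 52170 to 66880 CPM in KO, with 5 of 5 tested higher and Muc5ac at 0 counts in WT. Nearly all of this KO sum came from the keratins Krt13 (30800 to 43590 CPM) and Krt4 (21010 to 23100 CPM). In KO, Muc5ac reached at most 10.7 CPM, Spdef at most 10.9 CPM, and Gcnt3, which was not tested, at most 2.02 estimated counts. Leukocyte markers summed to 5.53 to 11.9 CPM in WT and 64.4 to 102.4 CPM in KO, with 5 of 5 tested higher. Stromal fibroblast markers summed to at most 24.4 CPM in any library (4 higher and 1 lower of 5 tested), vessel markers to at most 0.896 CPM and lens markers to at most 1.10 CPM (1 of 1 tested higher in each). Pigment cell markers summed to 9.24 to 13.3 CPM in WT and 5.79 to 6.36 CPM in KO (3 of 4 tested lower), and sebaceous and meibomian gland markers to 57.5 to 139.2 CPM in WT and 23.8 to 33.7 CPM in KO (1 of 1 tested lower). Nearly all of the latter sum came from Scd1. Awat1 and Pparg had 0 counts in WT, and Pparg, which was not tested, had 6, 8 and 12 counts in KO. In these bulk libraries, fewer cells of a type and less RNA per cell cannot be told apart, and the part of these marker differences in the retinoid results was not tested.

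Of the 9 genes, 8 passed the filter on low counts and Rbp4 did not. At an adjusted p of 0.05 (edgeR), 5 were higher in KO (Aldh1a3, Crabp2, Dhrs9, Lrat and Stra6), 2 were lower (Aldh1a1 and Cyp26b1), and Aldh1a7 was not called. Among all 13305 genes tested, 62.0% were called, 31.8% higher and 30.2% lower. The 7 genes also passed the study's threshold (adjusted p of 0.001 or less and at least a 2-fold change), which 19.8% of all tested genes passed, 11.6% higher and 8.24% lower, and their groups did not overlap, as was the case for 68.7% of tested genes. Aldh1a1, Crabp2 and Cyp26b1 passed this threshold in each of 19 alternative fits, whereas it was missed by Aldh1a3 in 7 of 19, by Dhrs9 in 4 of 19, by Stra6 in 2 of 19 and by Lrat in 8 of 18. Stra6, Dhrs9 and Lrat passed the filter only through the KO libraries, so these counts describe the genes and do not support a statement about the set.

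**Figure D1:**
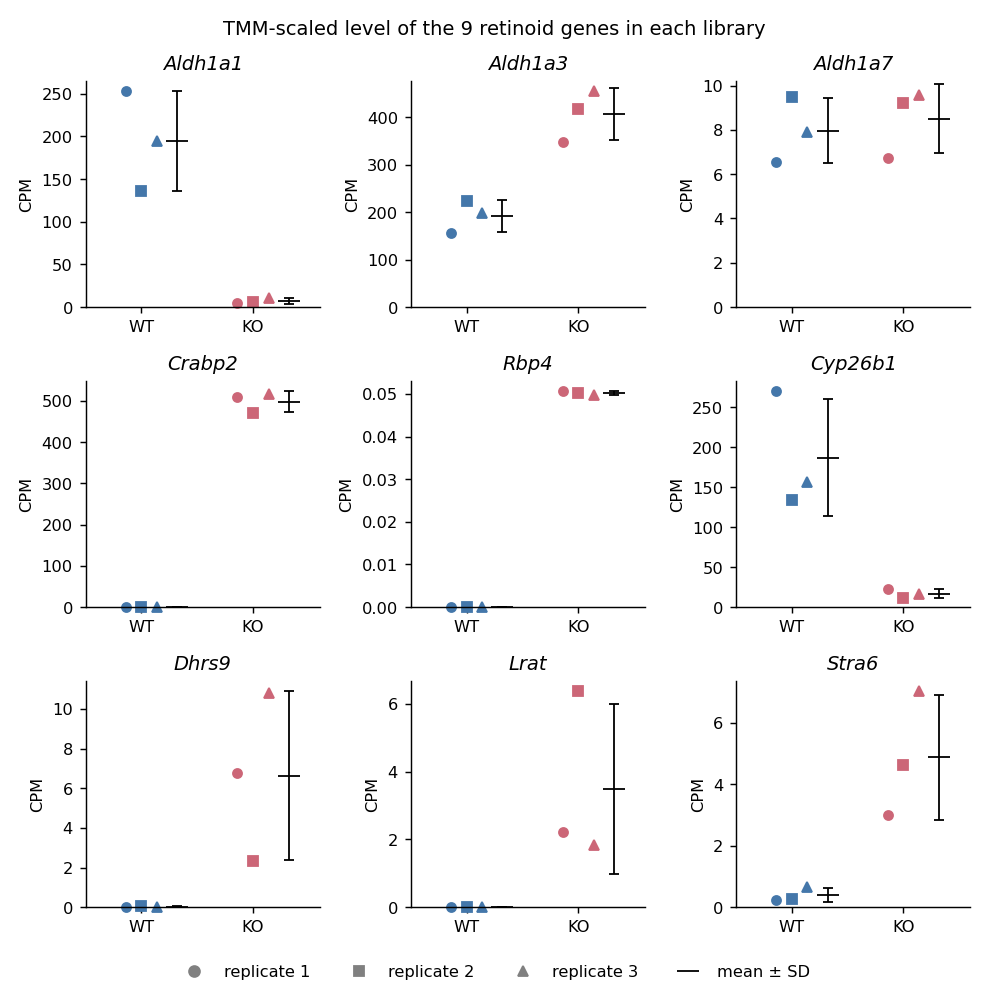
TMM-scaled CPM (y axis, linear, from 0) of the 9 genes in each WT (blue) and KO (red) library, with replicate number by symbol and group mean ± SD (n = 3) beside the points. Aldh1a1 and Cyp26b1 lie lower in every KO library, Aldh1a3, Crabp2, Dhrs9, Lrat and Stra6 lie higher, Aldh1a7 overlaps between the groups, and Rbp4 never exceeds 1 count.

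Aldh1a1 and Aldh1a7 are neighbours on chromosome 19 whose starts resemble each other, although their levels differed in how they compared between the genotypes. Their RefSeq promoter windows (GRCm38.p6, 250 bases before to 50 after the start, written 5′ to 3′ on the gene's strand) are shown to make this likeness visible. Aldh1a1 has 2 such windows, and the one shown is chr19:20601718-20602017 on the plus strand. That of Aldh1a7 is chr19:20727507-20727806 on the minus strand. Capitals mark the longest run that both share letter for letter, 65 bases from 94 to 30 bases before the start.
Aldh1a1: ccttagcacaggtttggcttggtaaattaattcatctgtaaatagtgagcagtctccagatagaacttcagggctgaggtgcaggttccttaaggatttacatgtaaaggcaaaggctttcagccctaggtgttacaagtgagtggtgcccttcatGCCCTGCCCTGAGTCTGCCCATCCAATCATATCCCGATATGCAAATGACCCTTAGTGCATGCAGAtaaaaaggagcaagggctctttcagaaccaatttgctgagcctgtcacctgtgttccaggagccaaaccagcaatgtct
Aldh1a7: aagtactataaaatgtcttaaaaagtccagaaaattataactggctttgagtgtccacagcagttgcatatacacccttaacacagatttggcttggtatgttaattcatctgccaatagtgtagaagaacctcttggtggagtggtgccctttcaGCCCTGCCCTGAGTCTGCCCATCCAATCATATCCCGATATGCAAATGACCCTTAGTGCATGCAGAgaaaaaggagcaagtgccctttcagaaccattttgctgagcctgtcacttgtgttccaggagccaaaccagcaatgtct
Over 282 aligned bases of these windows, 224 (79.4%) were identical. The other Aldh1a1 window, chr19:20492333-20492632, shared a run of only 8 bases with that of Aldh1a7.

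The promoter table used here held 12 windows for 7 of the 9 genes, and Aldh1a3 and Crabp2 were not searched. The windows were read on both strands for the NF-κB motif of 10 letters and for the retinoic acid response element of the DR5 type, which is a repeat of 6 letters with a spacer of 5. The NF-κB motif was present in 1480 of 32851 mouse promoter windows (4.51%). Among the 7 genes searched it was found only in Cyp26b1, in chr6:84593761-84594060 on the minus strand, from 206 to 197 bases before the start (capitals).
Cyp26b1: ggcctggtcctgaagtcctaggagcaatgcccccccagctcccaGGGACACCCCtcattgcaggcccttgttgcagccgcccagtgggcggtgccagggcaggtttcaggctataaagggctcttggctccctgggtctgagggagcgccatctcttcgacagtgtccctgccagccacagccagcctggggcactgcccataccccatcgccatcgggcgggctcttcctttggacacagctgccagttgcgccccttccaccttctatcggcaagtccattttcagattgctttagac
Neither Aldh1a1 window held these letters, which says only that they are not in these windows. The study reports a putative NF-κB site in the Aldh1a1 promoter, with ChIP for RelA in primary corneal epithelial cells. By its stated position that site lies farther upstream than these windows reach, so this search does not bear on it. The DR5 element was present in 32 of 32851 windows (0.0974%) and in none of the 12. In the wider pathway, where 39 of 48 genes had a window, the NF-κB motif was found in Pnpla2 and Rara. There the DR5 element was found before Rarb, from 53 to 37 bases before the start, and before Cyp26a1, from 32 to 16 bases before the start on the opposite strand, both of which are textbook targets of retinoic acid. The elements are printed as they read on the gene's strand.
Rarb: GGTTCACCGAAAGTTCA
Cyp26a1: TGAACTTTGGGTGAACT

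Of the genes of carriage, uptake and storage, Rbp4, Stra6 and Lrat were at or near 0 in WT corneal epithelium. Rbp4 (gene 19662, chromosome 19, 38116620 to 38125321), the carrier of retinol in blood that is made mainly in liver, had 0 counts in each WT library and 1 count in each KO library. It was therefore not detectable at this depth, where 3 counts, the floor used here, correspond to between 0.137 and 0.152 CPM. Such floors cover counting error only.

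Stra6 (gene 20897, chromosome 9, 58063793 to 58154004), the membrane receptor that takes up retinol, had 5, 6 and 14 counts across the WT libraries and 59, 92 and 141 across the KO libraries. Every KO library lay above every WT library, the lowest KO value being 4.51 times the highest WT value. The WT level averaged 0.390 ± 0.237 CPM and the KO level 4.87 ± 2.03 CPM (mean ± SD, n = 3). The edgeR log2 fold change of 3.63 (SE 0.468, adjusted p = 0.000246) lay between 3.27 without KO replicate 3 and 4.24 without WT replicate 3. Lrat (gene 79235, chromosome 3, 82892582 to 82903974), which forms retinyl esters, had 0 counts in each WT library and 44, 127 and 37 counts in KO. KO replicate 2 held the highest value, and against the floor of 3 counts in each library the KO mean was at least 24.9-fold higher (adjusted p = 0.000808, edgeR), or at least 14.6-fold without KO replicate 2. Lrat and Dhrs9 belong to the 289 tested genes (2.17%) with at most 3 counts in every WT library and more than 3 in every KO library.

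Among the other genes of this step, Rbp2, the intestinal retinol-binding protein, had high counts in both groups, averaging 264.2 ± 9.21 CPM for WT and 273.7 ± 25.6 CPM for KO (mean ± SD, n = 3), and the groups overlapped. Stra6l, a second retinol receptor, fell from 3.94 ± 0.262 to 2.40 ± 0.186 CPM (mean ± SD, n = 3; adjusted p = 0.0105, edgeR), but this call was lost after a correction for gene length (adjusted p = 0.0508). Rbp7, at 0 counts in each WT library and 16, 2 and 11 in the KO libraries, was not tested. Of the 4 genes tested for retinyl ester and visual cycle enzymes, Awat2 was higher, at 5 to 7 counts in WT and 14.0 to 15 in KO (adjusted p = 0.00963, edgeR), and the lipase Pnpla2 had a log2 fold change of -0.28 (adjusted p = 0.0470, edgeR), whereas Dgat1 and Lipe were not called. The Awat2 call was lost under DESeq2 (adjusted p = 0.0770), and the Pnpla2 call was lost in 9 of 19 alternative fits. Dgat1 (log2 fold change 0.37, adjusted p = 0.0532, edgeR) was called higher in 3 of 19. Rpe65, the isomerase of the visual cycle in the retina, had at most 0.58 estimated counts in any library.

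In the redox step between retinol and retinal, Dhrs9 (gene 241452, chromosome 2, 69380462 to 69403086), a short-chain dehydrogenase that oxidises retinol, had WT counts of 0, 1 and 0 and KO counts of 134, 46 and 217. The KO values spread widely, 6.63 ± 4.25 CPM (mean ± SD, n = 3), yet each was above every WT library, and the mean was at least 47.5-fold higher than the floor (adjusted p = 0.000141, edgeR).

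The other redox enzymes held calls in both directions. Of 15 tested, 7 were higher in KO (Rdh10, Rdh11, Rdh12, Rdh13, Rdh16, Sdr16c5 and Sdr16c6), 3 were lower (Adh1, Adh7 and Dhrs3), and 5 were not called, which is 66.7% called beside 62.0% of all tested genes. Sdr16c5 and Sdr16c6, retinol dehydrogenases of the epidermis, had 0 counts in each WT library. Sdr16c5 had 719, 775 and 537 counts in KO, at least 243.5-fold above the floor (adjusted p = 3.36e-06, edgeR), and Sdr16c6 had 1014, 784 and 657 counts, at least 294.5-fold above it (adjusted p = 4.33e-06, edgeR). Both lie on chromosome 4, with 34236 bases between them in the deposited coordinates. Rdh12, known as a retinal reductase of photoreceptors, rose from 18, 13 and 10 counts in WT to 1650, 2158 and 1680 in KO, with an edgeR log2 fold change of 7.16 and an SE of 0.207 (adjusted p = 1.68e-07). Rdh10, the main enzyme of embryonic retinol oxidation, stood at 12.7 to 13.7 CPM in WT and 26.1 to 29.0 CPM in KO, and its log2 fold change of 1.06 had a small error (SE 0.101, adjusted p = 4.82e-05, edgeR).

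Adh1, the cytosolic alcohol dehydrogenase that clears excess retinol, stood at 1442, 1215 and 1292 CPM in WT and at 302, 361 and 551 CPM in KO. It fell by 1.70 on the log2 scale (SE 0.215, adjusted p = 0.000218, edgeR), and the groups did not overlap. Adh7, the related enzyme of stratified epithelia, had a log2 fold change of -0.40 with overlapping groups (adjusted p = 0.0374, edgeR), and its call was lost in 5 of 19 alternative fits. Dhrs3, which reduces retinal back to retinol, had a log2 fold change of -0.50 (adjusted p = 0.0108, edgeR), and this p became 0.0508 without WT replicate 3. The Rdh16 call was lost when WT replicate 1, WT replicate 2 or KO replicate 3 was left out, and its log2 fold change of 1.47 (adjusted p = 0.0179, edgeR) became 2.16 without WT replicate 3. Rdh16, Rdh9 and Rdh1 lie close together on chromosome 10 and had counts that were not whole, so part of their reads was shared out among genes, which were not traced here. Rdh11 and Rdh13 had log2 fold changes of 0.71 (adjusted p = 0.0120, edgeR) and 0.78 (adjusted p = 0.000715, edgeR). The 2 enzymes that cleave carotenoids both fell. Bco1, which cuts beta-carotene at its centre to form retinal, went from 6.85 ± 0.597 to 1.52 ± 0.434 CPM (mean ± SD, n = 3, adjusted p = 7.84e-05, edgeR). Bco2, which cuts off centre, went from 8.17 ± 1.56 to 4.34 ± 0.563 CPM (mean ± SD, n = 3, adjusted p = 0.00338, edgeR).

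**Figure D2:**
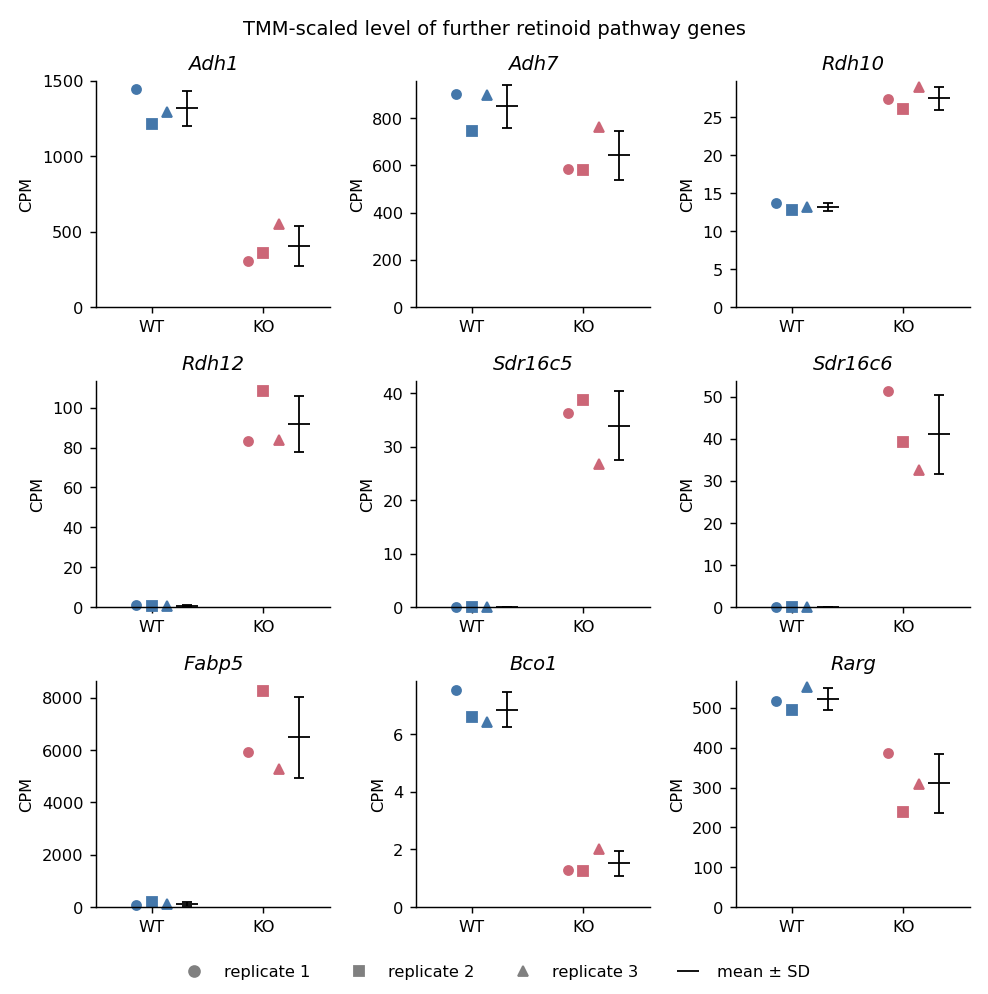
TMM-scaled CPM (y axis, linear, from 0) of 9 further pathway genes in each WT (blue) and KO (red) library, with replicate number by symbol and group mean ± SD (n = 3) beside the points. Adh1, Bco1 and Rarg lie lower in every KO library, Adh7 overlaps between the groups, and the other 5 genes lie higher, Sdr16c5 and Sdr16c6 from 0 counts in WT.

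At the step that makes retinoic acid, Aldh1a1 and Aldh1a3 moved in opposite directions. Aldh1a1 (gene 11668, chromosome 19, 20492174 to 20643462), the cytosolic retinal dehydrogenase that is abundant in adult eye tissues, had 5527, 2922 and 4108 estimated counts in WT and 83.7, 119 and 211 in KO. The KO values lay far below the WT values, the lowest WT library being 12.9 times the highest KO library in CPM, and the means differed 28.2-fold. By TPM its place among the 17866 genes went from 597 in WT to 9086 in KO. The edgeR log2 fold change of -4.81 (SE 0.357, adjusted p = 1.34e-05) lay between -5.25 and -4.56 when 1 library was left out.

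Aldh1a3 (gene 56847, chromosome 7, 66390892 to 66427477), the form best known from embryonic nasal and ventral eye tissue, had WT counts of 3420, 4820 and 4175 and KO counts of 6883, 8349 and 9166. Each KO library lay above each WT library, and the KO mean was 2.12 times the WT mean (edgeR log2 fold change 1.08, SE 0.156, adjusted p = 0.000453). With 1 library left out the log2 fold change lay between 0.96 without WT replicate 1 and 1.21 without WT replicate 2. The genes that flank it in the table did not show the same difference, Lrrk1 having a log2 fold change of -0.03 (adjusted p = 0.779, edgeR) and Asb7 of -0.33 (adjusted p = 0.0293, edgeR). Aldh1a2, the main form of the embryo, had at most 1 count in any library and was not detectable at this depth.

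Aldh1a7 (gene 26358, chromosome 19, 20692953 to 20727556), a rodent relative of Aldh1a1, lies 49491 bases from it in the deposited coordinates. It had 143, 204 and 167 estimated counts in WT and 133, 184 and 192 in KO, and the groups overlapped. WT averaged 7.97 ± 1.46 CPM and KO 8.51 ± 1.54 CPM (mean ± SD, n = 3), with an edgeR log2 fold change of 0.09 and an SE of 0.193 (adjusted p = 0.697) whose sign turned in 4 alternative fits.

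The split of reads between Aldh1a1 and Aldh1a7 is uncertain. Their GENCODE transcripts were identical in 1839 of 2048 aligned bases (89.8%), and 151 of the 2004 windows of 50 bases in Aldh1a1 (7.54%) occurred unchanged in Aldh1a7, whereas none occurred in Aldh1a2 or Aldh1a3. Neither gene had whole counts, but their sum was whole, to within 0.001, in each of the 6 libraries: 5670, 3126 and 4275 in WT and 217, 303 and 403 in KO. Reads shared out by RSEM were thus shared only within this pair. The share of the pair's counts given to Aldh1a7 averaged 4.31 ± 2.03% over the WT libraries and 56.6 ± 7.80% over the KO libraries (mean ± SD, n = 3). The pair as 1 row, a fit added after seeing the data, had an edgeR log2 fold change of -3.71 and an SE of 0.274 (adjusted p = 1.29e-05), so the pair as a whole was lower whichever gene the shared reads came from.

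Aldh1a1 and Aldh1a3 were then compared per length, in the deposited TPM, in which the transcripts of a library sum to 1000000. In WT their sum was 392, 295 and 325 TPM, of which Aldh1a1 made up 73.2%, 50.6% and 62.4%. In KO the sum was 182, 221 and 239 TPM, and Aldh1a1 made up 2.01%, 2.34% and 3.74%. The main form thus went from Aldh1a1 in each WT library, narrowly in WT replicate 2, to Aldh1a3 in each KO library. The mean sum was 337.3 ± 49.5 TPM in WT and 213.9 ± 29.0 TPM in KO (SD, n = 3), and the groups did not overlap. As the ratio of KO to WT, this was 0.634 in TPM, 0.752 in FPKM and 0.803 in FPKM divided by the TMM factor. On the last scale, added after seeing the data, the groups overlapped, the highest KO value being 138.1 and the lowest WT value 132.4. Hence the share of Aldh1a1 differed between the groups by more than the spread between libraries, whereas whether the groups were apart in the summed level depended on the scale.

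**Figure D3:**
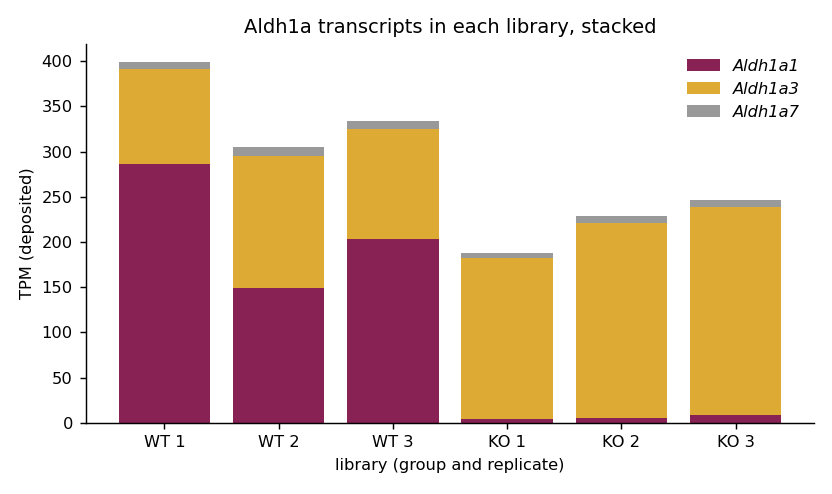
Deposited TPM of Aldh1a1, Aldh1a3 and Aldh1a7 (y axis, linear, from 0), stacked in a bar for each of the 6 libraries (x axis, group and replicate). Aldh1a1 is the largest part of each WT bar, narrowly so in WT replicate 2 (149.1 TPM beside 145.8 TPM for Aldh1a3). It is hardly visible in the KO bars, at 3.65 to 8.92 TPM, where Aldh1a3 makes up nearly the whole bar.

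Crabp2 (gene 12904, chromosome 3, 87948693 to 87953372), which binds retinoic acid in the cytosol and delivers it to RAR, had the largest fold of those among the 9 genes with more than 3 counts in both groups. It had WT counts of 10, 15 and 28 and KO counts of 10042, 9374 and 10372. The KO libraries lay close together, at 498.2 ± 24.9 CPM (SD, n = 3) beside 0.827 ± 0.448 CPM in WT, and even the lowest KO library was 354.6 times the highest WT library. The edgeR log2 fold change was 9.23, with an SE of 0.279 (adjusted p = 2.34e-07), and 79 of the 13305 tested genes had a larger one. By TPM its place among all genes went from 10927 in WT to 162 in KO. The flanking genes Isg20l2 and Nes had log2 fold changes of 0.73 and 0.81.

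Fabp5, an epidermal fatty acid-binding protein that can also carry retinoic acid, rose as well, from 63.2, 201 and 102.5 CPM in WT to 5935, 8248 and 5298 CPM in KO, with an edgeR log2 fold change of 5.73 and an SE of 0.460 (adjusted p = 2.02e-05). Crabp1 had at most 3 counts in any library. Of the 3 binding and carrier genes counted beside the 9, Fabp5 was higher, Stra6l was lower and Rbp2 was not called.

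Cyp26b1 (gene 232174, chromosome 6, 84571414 to 84593908), the hydroxylase that limits retinoic acid in skin and other tissues, was the only CYP26 gene with enough counts to be tested. It had WT counts of 5902, 2889 and 3299 and KO counts of 439, 216 and 335. WT replicate 1 stood above the other WT libraries, as it did for Aldh1a1, yet the lowest WT library was still 6.05 times the highest KO library. The WT mean of 186.9 ± 73.0 CPM stood beside a KO mean of 16.6 ± 5.70 CPM (SD, n = 3), which is 11.3-fold lower, with an edgeR log2 fold change of -3.49 and an SE of 0.334 (adjusted p = 4.96e-05) that was -3.12 without WT replicate 1. Cyp26a1 had between 1 and 6 counts and Cyp26c1 at most 2 counts in any library, and neither was tested.

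The 9 genes were ordered by TPM in each group. In WT, Aldh1a1 led at 212.9 ± 69.3 TPM, followed by Aldh1a3 at 124.5 ± 20.4 TPM and Cyp26b1 at 86.1 ± 36.3 TPM (mean ± SD, n = 3), the ranges of the latter pair overlapping. Aldh1a7 at 8.55 TPM, Crabp2 at 2.06 TPM and Stra6 at 0.307 TPM came next without overlap, and Dhrs9, Rbp4 and Lrat stood at or near 0. In KO, Crabp2 led at 990.4 ± 39.5 TPM, followed by Aldh1a3 at 208.0 ± 26.6 TPM. Behind them Aldh1a7, Cyp26b1, Aldh1a1, Dhrs9, Stra6 and Lrat lay between 7.22 and 1.13 TPM, and each overlapped with the next in order. Rbp4 came last at 0.0967 TPM, from 1 count in each library.

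Among the receptors of retinoic acid, Rara and Rarg were lower in KO. Rara fell from 14.8, 18.5 and 16.9 CPM in WT to 10.6, 7.28 and 8.41 CPM in KO (edgeR log2 fold change -0.93, SE 0.164, adjusted p = 0.00130). Rarg, the main RAR of stratified epithelia, fell from 518, 495 and 552 CPM to 386, 238 and 308 CPM (edgeR log2 fold change -0.75, SE 0.167, adjusted p = 0.00456). In neither gene did the groups overlap. Rarb, itself a target of retinoic acid, had WT counts between 25.6 and 29.0 and KO counts between 31.0 and 62.1 and was not called (log2 fold change 0.73, adjusted p = 0.0819, edgeR). Rxra and Rxrb had log2 fold changes of 0.09 and 0.02 and were not called, and Rxrg was at the floor. Of 5 receptors tested, 2 were called, both lower, beside 30.2% of all tested genes called lower.

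The 6 genes counted as known to be retinoic acid inducible include Rarb and Dhrs3 from the lists above. Of these 6, Tgm2, Ret and Dhrs3 were lower, only Nrip1 was higher, and Rarb and Rarres1 were not called. This was 66.7% called beside 62.0% of all tested genes (31.8% higher and 30.2% lower). The list holds none of the 9 genes, of which 5 were called higher and 2 lower, so its counts depend on that choice. Tgm2, a transglutaminase, fell from 1714, 1189 and 1475 CPM to 178, 187 and 262 CPM (edgeR log2 fold change -2.80, SE 0.200, adjusted p = 1.07e-05). Ret, a receptor tyrosine kinase, fell from 15.5, 11.4 and 13.6 CPM to 3.90, 5.51 and 6.47 CPM (edgeR log2 fold change -1.35, SE 0.205, adjusted p = 0.000596). Nrip1, a nuclear receptor corepressor, had overlapping groups at a log2 fold change of 0.41 (adjusted p = 0.0377, edgeR), and its call was lost in 8 of 19 alternative fits. Stra8 was at the floor.

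Over all pathway lists together, 45 of the 48 genes counted beside the 9 were in the table and 33 were tested, of which 10 were higher, 11 were lower and 12 were not called. This was 63.6% called beside 62.0% of all tested genes. Rdh12, Sdr16c5, Sdr16c6 and Awat2, all among the 10 higher, passed the filter only through the KO libraries, so the counts of these lists are a description.

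**Figure D4:**
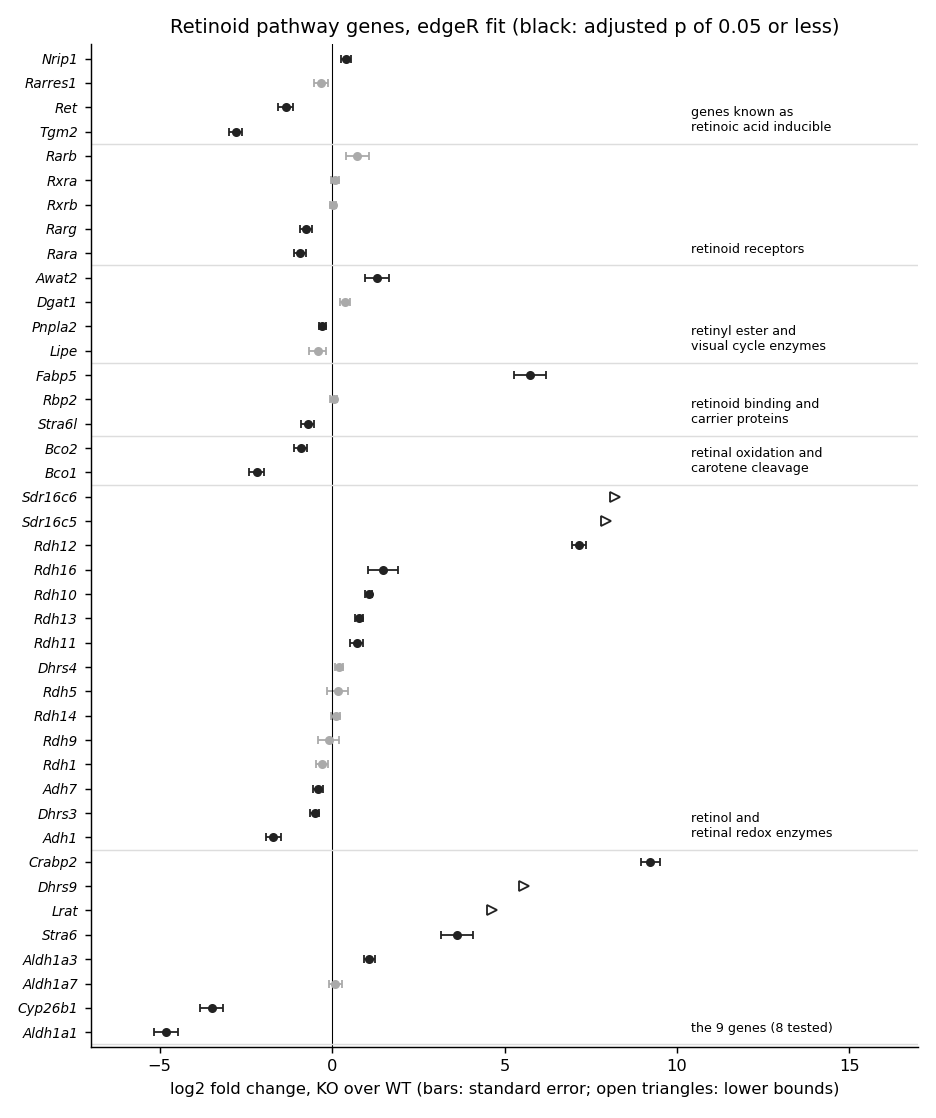
Log2 fold change of KO over WT (x axis) from the edgeR fit for the 8 tested genes and the 33 other tested pathway genes (y axis, grouped by role, each gene shown once), with bars for the standard error. Black marks an adjusted p of 0.05 or less, grey the rest, and open triangles are lower bounds for the 4 genes (Dhrs9, Lrat, Sdr16c5 and Sdr16c6) at the floor in WT. The points spread on both sides of 0 in most groups, from -4.81 for Aldh1a1 to 9.23 for Crabp2.

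The genes whose profile over the 6 libraries was most like each of the 7 called genes were found by the Euclidean distance of log2 CPM centred on the WT mean, among 12753 genes. For Aldh1a1 these were Enpep (distance 0.36) and Unc5c (0.40), for Cyp26b1 they were Npr3 (0.49) and Pard3b (0.69), and for Aldh1a3 they were Nuf2 and Gsap (both 0.19). For Crabp2 they were Rnase2b (1.07) and Gm6551 (1.10), for Stra6 Fgl2 (0.60) and Adgrg2 (0.64), for Lrat Gsdmc3 (0.80) and Limch1 (0.83), and for Dhrs9 Fosl1 (0.71) and Lce1e (0.86). The distance weighs mainly the difference between the groups, so that all 14 genes named so were themselves called follows largely from the way they were picked. The likeness was loosest for Crabp2 (log2 fold change 9.23). The edgeR log2 fold changes of Rnase2b and Gm6551, 13.41 and 13.09, are on another scale than the distance, which used log2(CPM + 0.1).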

How the data were processed

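Corneal epithelium of WT and KO mice was profiled by bulk RNA-seq, in 3 libraries per group. Titles and genotype labels gave the groups. Per the study's methods, the authors depleted ribosomal RNA, sequenced single-end reads of 50 bases on a BGI instrument and filtered them with SOAPnuke, whereas the labels name an Illumina kit. The submitters' processing notes name Bowtie2 2.2.5, RSEM 1.2.12 and the build mm9, but the chromosome accessions in the deposited table are those of GRCm38. The authors deposited estimated counts (expected counts of RSEM), FPKM and TPM for each gene and library. RSEM divides reads that fit several genes, so genes whose counts were not whole held 30.9% to 39.8% of a library's total. Columns with the authors' own fold changes, p-values and group averages were not used, and whether counting used strand is not stated. The genome, protein sequences and exon usage were not used here.

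Estimated counts were rounded to whole numbers. The test was that of edgeR 4.0.16 under R 4.3.3 (TMM, filterByExpr, glmQLFit and glmQLFTest, genotype as the only term), with p-values adjusted by Benjamini-Hochberg over all 13305 genes tested. TMM factors lay between 1.01 and 1.05 in WT and between 0.952 and 0.990 in KO. Where a group was at or under 3 counts in each library, the fold is a lower bound from the other group's mean CPM over the mean CPM of 3 counts per library. The fit was tested on simulated data. Transcripts were those of GENCODE M21, and promoter windows those of RefSeq. Alternatives were RLE factors, total counts, TMM without the 20 highest genes, 2 other filters, robust dispersion, DESeq2 1.42.0, limma 3.58.1 on log2(FPKM + 1) and log2(FPKM + 0.1), a gene length correction, unrounded counts, the replicate number as a block, and each library left out.

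The genes, pathway lists and marker lists were chosen with earlier results of these data known. Named genes were the 9 genes, the pathway list genes, Rela, and the 2 nearest profiles of each called gene (mean of at least 1 CPM in the higher group, log2(CPM + 0.1)), with genome neighbours as a description. Adh4, Rarres2 and Hoxb1 were not analysed here. Other genes of the lists as first written are not reported here and are in no list count.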

Additional observations from a re-analysis of the deposited data

How the results depend on the processing

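The 7 calls among the 9 genes held at 0.05 with the same sign in each of the 19 alternative fits in which the gene was tested. With a mean count of at least 50, Lrat was not tested and 4 genes were higher in place of 5, and Aldh1a7 has no value where its reads were summed with Aldh1a1. The titles do not say what the replicate numbers stand for, and the deviations of same-numbered libraries had correlations of 0.034, -0.010 and 0.061. With the replicate number as a block, 4149 genes were higher and 3934 lower at 0.05 (4231 and 4022 without it), 1315 and 943 at the study's threshold (1543 and 1096 without it), and the calls among the 9 genes stayed at 5 higher and 2 lower. Limma on log2(FPKM + 1) gave 987 genes higher at the study's threshold in place of 1543, and on this scale, which understates low genes, the log2 fold changes of Lrat, Stra6 and Dhrs9 were 0.67, 1.18 and 1.58. Total counts shifted the split of calls to 3709 higher and 4630 lower, and both limma fits did likewise. The ratio of KO to WT for the summed Aldh1a1 and Aldh1a3 level was 0.803 in FPKM divided by the TMM factor, in place of 0.634 in TPM, and 0.597 to 0.690 when 1 library was left out.

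Genes that were not called changed sign as follows, on the log2 scale. Aldh1a7 was at -0.0025 and -0.0041 in the limma fits with a pseudocount of 1 and 0.1, -0.02 without WT replicate 1 and -0.00018 without KO replicate 3, with a range from -0.02 to 0.24 when 1 library was left out. Rdh14 was at -0.0042 and -0.0049 in the limma fits and -0.04 with the length correction, which put Rdh5 at -0.07. Rdh9 turned to 0.10 without WT replicate 1 and 0.03 without KO replicate 3, in a range from -0.29 to 0.10. Rbp2 was at -0.04 with total counts, -0.05 in both limma fits and -0.42 with the length correction (adjusted p = 0.0115, edgeR). Rxra was at -0.0018 with total counts, -0.01 in both limma fits and -0.03 without KO replicate 1, and Rxrb at -0.07, -0.08, -0.09 and -0.03 in the same order of fits. With 1 library left out Rxra ranged from -0.03 to 0.17 and Rxrb from -0.03 to 0.07. The length correction kept the sign of Rxra but made it a call, at 0.29 (adjusted p = 0.0475, edgeR). The causes were not tested. Depth limits what can be said of the genes that were not tested, Rbp4 and Aldh1a2 among them, and 3 libraries per group limit the precision of the others.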
